A study of Mus musculus with 2 samples.

Results

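The costimulatory and leukocyte adhesion ligands measured here were 10 genes, chosen by symbol for their known functions: Cd80, Cd86, Icosl, Cd40, Cd274, Cd47, Cd44, Icam1, Vcam1 and Madcam1. They were 10 of the 22909 genes that could be named on the array through the RefSeq accessions of its probes, and were covered by 18 of its 56593 gene probes. RNA of whole colon was compared between Villin-Cre mice and Villin-Cre; EP4flox/flox mice, called EP4 cKO, made to lack the prostaglandin E2 receptor EP4 (gene Ptger4) in the intestinal epithelium. Both groups were C57BL/6 mice aged 8 weeks, received no treatment and carried the Cre transgene. Cre was driven by the villin promoter, which is active in epithelial cells, so that stromal, endothelial and immune cells of the EP4 cKO colon kept the receptor. The sex of the mice is not given in the sources used here. Each genotype was represented by 1 Agilent 1-color array, hybridized with total RNA combined from 3 pools of colon. With 1 array per genotype, no difference below has a replicate check, no p-value can be given, and every value compares these arrays rather than the genotypes at large.

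T cells that recognize an antigen on MHC class II need further signals from the antigen-presenting cell. These are passed by costimulatory ligands of the B7 and TNF families on its surface. Other ligands, above all PD-L1, restrain the T cell. Leukocytes reach the gut wall by binding to adhesion molecules on the endothelium of its vessels, where MAdCAM-1 serves as the address of the gut. The comparison therefore asked whether the genes of MHC class II, which differed widely between the arrays, differed together with the ligands that accompany antigen presentation and with those that recruit leukocytes.

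The promoters of 7 of the 10 genes were found in the RefSeq table of the mouse assembly GRCm38.p6, and 4 of them are shown, each as the 250 bases before the transcription start and read 5′ to 3′ toward the gene. Those of Cd274 and Cd47 are shown because these were the genes that differed most between the arrays, and those of Icam1 and Madcam1 because they held a motif that was searched. Capitals mark a match to a motif.
Cd274 (chr19:29367188-29367437, plus strand): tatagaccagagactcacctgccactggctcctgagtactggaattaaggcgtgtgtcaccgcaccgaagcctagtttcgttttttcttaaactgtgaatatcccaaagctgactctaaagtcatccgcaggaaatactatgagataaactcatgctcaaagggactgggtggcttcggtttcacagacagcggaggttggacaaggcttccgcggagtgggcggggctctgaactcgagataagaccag
Cd47 (chr16:49855404-49855653, plus strand): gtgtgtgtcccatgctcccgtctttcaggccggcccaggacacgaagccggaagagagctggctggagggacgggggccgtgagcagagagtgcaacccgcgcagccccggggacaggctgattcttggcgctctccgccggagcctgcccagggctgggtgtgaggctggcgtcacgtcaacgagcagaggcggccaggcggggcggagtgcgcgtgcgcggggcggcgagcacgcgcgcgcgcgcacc
Icam1 (chr9:21015690-21015939, plus strand): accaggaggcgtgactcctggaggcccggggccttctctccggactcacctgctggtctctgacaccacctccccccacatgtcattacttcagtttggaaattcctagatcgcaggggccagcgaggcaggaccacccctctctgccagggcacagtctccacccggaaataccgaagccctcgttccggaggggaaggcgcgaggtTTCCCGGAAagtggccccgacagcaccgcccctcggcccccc
Madcam1 (chr10:79664309-79664558, plus strand): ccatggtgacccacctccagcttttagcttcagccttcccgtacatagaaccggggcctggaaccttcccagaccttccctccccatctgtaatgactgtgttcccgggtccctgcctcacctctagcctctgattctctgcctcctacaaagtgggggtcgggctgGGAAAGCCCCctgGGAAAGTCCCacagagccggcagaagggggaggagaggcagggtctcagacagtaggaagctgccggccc
The motifs were the gamma-activated sequence of interferon-responsive genes (TTCNNNGAA), the core of the interferon-stimulated response element (GAAA, any 2 bases, GAAA) and the kappaB site (GGG, any 2 bases, TTTCC), each read on both strands, where N is any base. No match of one motif overlapped a match of another in these windows. The gamma-activated sequence was found in the Icam1 promoter, from 42 to 34 bases before the start, and the kappaB motif was found at 2 places of the Madcam1 promoter, from 83 to 74 and from 70 to 61 bases before the start. Among all 32851 promoters of the same length, 7.02% held the first motif, 2.98% the second and 1.41% the third. None of the 3 motifs was found in the windows of Cd274, Cd47, Cd44, Cd80 and Icosl, which says only that these letters were not within 250 bases before the start used. Promoters of Cd40, Cd86 and Vcam1 were not analysed here.

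The signal of a probe is given as normalized signal, in arbitrary units, after each array was scaled so that the mean of its gene probes, without the dimmest and the brightest 2%, was 2500. The value after ± is the error that the scanner software assigned to the spot within its array; it does not cover differences between mice or between arrays. All 18 probes had 1 spot per array, so that no spread over spots can be given for them. The scanner software marked each spot as well above background or not. The dimmest probe marked so had a signal of 125 in the Villin-Cre colon and 57.8 in the EP4 cKO colon, and these values were used as floors: for a probe above background on a single array, the ratio is a bound against the floor or the probe's own signal on the dim array, whichever was higher. No fold is given where that bound was 1 or less, and the log2 ratio was then set to 0. Log2 ratios are EP4 cKO over Villin-Cre, and a gene has the value of its brightest probe.

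Probes well above background numbered 25683 (45.4%) with Villin-Cre and 29177 (51.6%) with EP4 cKO, and 0 spots were saturated. A value was obtained for 14679 genes, with a median log2 ratio of -0.10, and on the EP4 cKO array 713 of them exceeded 2-fold upward and 1155 downward. This split depended on the scaling, with 937 higher and 907 lower when scaled to the 75th percentile, 901 and 944 with a trimmed mean over all spots, 906 and 869 with loess, a smooth correction of the ratio along the signal, 605 and 391 with normexp background correction and quantile normalization, and 5991 and 325 when scaled to the E1A control spots, which are made for a spike-in RNA. Whether that RNA was added is not given in the sources used here. The median of all genes was 0.10 higher on the log2 scale with 4 of these scalings and 0.99 higher with the E1A control spots. With these 4 the median was exactly 0, the value set for genes without a fold. The 0.10 thus does not measure the scaling shift. The log2 ratio of Cd47, for example, went from 1.14 to 1.29 with the 75th percentile and to 2.20 with the E1A control spots. Ptger4 itself did not separate the arrays: its brighter probe had a normalized signal of 6227 in Villin-Cre colon and 5661 in EP4 cKO colon (log2 ratio -0.14, scanner error 0.20), and its dimmer probe 393 and 592 (0.59, scanner error 0.23). With the other scalings the brighter probe ran from -0.14 to 0.92. The targeted gene thus did not check the labels, and where its probes lie relative to the floxed part is not known here. Directions below are those of the arrays labelled EP4 cKO and Villin-Cre.

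Among the 10 genes, Cd274 and Cd47 exceeded 2-fold upward on the EP4 cKO array and 0 exceeded it downward, beside 4.86% of all genes with a value that were higher and 7.87% that were lower. Cd44 was just inside the 2-fold limit, and Cd80 was slightly lower. For Cd86 and Icosl a probe was well above background on the EP4 cKO array only and gave no fold. Cd40, Icam1, Vcam1 and Madcam1 were not well above background in either colon. The median log2 ratio was 0.48 over the 6 genes with a value and 1.05 over the 4 genes measured on both arrays. Of the 18 probes, 4 were well above background on both arrays, 3 on the EP4 cKO array only, 0 on the Villin-Cre array only and 11 on neither, and 4 of the genes thus gave no value. Over all genes named, 8230 (35.9%) gave none. Over all probes, 24734 were well above background on both arrays, out of 29177 with EP4 cKO and 25683 with Villin-Cre. Across the whole array, too, more probes were thus above background on the EP4 cKO array only than on the Villin-Cre array only.

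**Figure D1:**
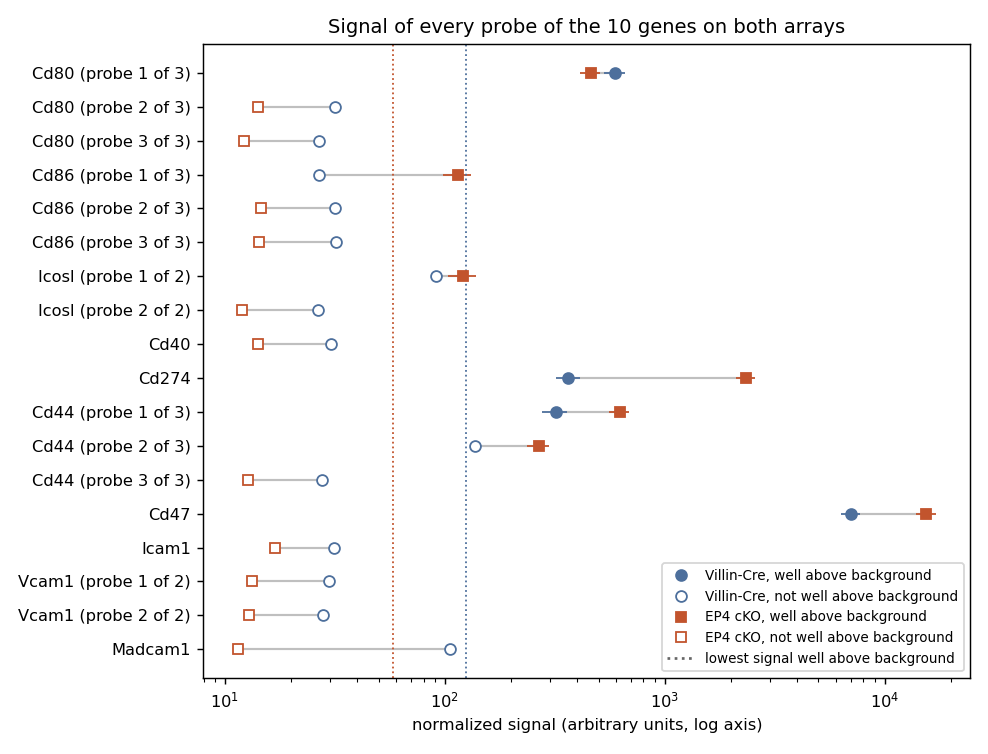
Normalized signal (x axis, arbitrary units, log scale) of each of the 18 probes of the 10 genes (y axis) on the Villin-Cre array (circles) and the EP4 cKO array (squares), filled where well above background, with the scanner error as bars on filled points and the dimmest signal well above background of each array as dotted lines (125 and 57.8). Only the probes of Cd80, Cd274, Cd44 (probe 1) and Cd47 are filled on both arrays, and the square of Cd274, at 2341, lies farthest to the right of its circle, at 365, among these 4.

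Cd80 and Cd86 encode B7-1 and B7-2, the ligands that bind CD28 on T cells to costimulate and CTLA-4 to inhibit. The brightest Cd80 probe had a normalized signal of 597 ± 66.2 in Villin-Cre colon and 461 ± 47.9 in EP4 cKO colon, a log2 ratio of -0.37 (scanner error 0.22), or 1.29-fold lower. This is a difference within 2-fold, and its sign turned to 0.69 when the arrays were scaled to the E1A control spots. The other 2 Cd80 probes were not well above background in either colon, with 31.7 and 26.8 in Villin-Cre colon and 14.1 and 12.2 in EP4 cKO colon.

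Of the 3 Cd86 probes, 1 was at 26.7 and not well above background on the Villin-Cre array but at 115 ± 16.8 and well above background on the EP4 cKO array. Because 115 lies under the floor of 125 of the Villin-Cre array, no fold can be given. The log2 ratio of this probe's own signals was 2.11, a value that rests on a signal not distinguished from background on the Villin-Cre array. The remaining Cd86 probes, at 31.9 and 31.5 in Villin-Cre colon and 14.3 and 14.6 in EP4 cKO colon, were not well above background on either, so the 3 probes of this gene did not give the same picture.

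Icosl, which encodes the ligand of the T cell costimulator ICOS, was, like Cd86, well above background on the EP4 cKO array only. Its brighter probe was at 90.8 ± 29.5 and not well above background on the Villin-Cre array, and at 121 ± 17.7 and well above background on the EP4 cKO array. This signal too lay under the floor of 125 and gives no fold. The other Icosl probe was at 26.5 and 12.0, not well above background in either colon. Cd40, the receptor through which CD4 T cells license antigen-presenting cells, had 1 probe, at 30.4 in Villin-Cre colon and 14.1 in EP4 cKO colon, and was not well above background on either. Of Cd80, Cd86, Icosl and Cd40, Cd80 alone was measured on both arrays, and it was within 2-fold. Cd86 and Icosl gave no fold and Cd40 no value, so whether they differed by 2-fold was not decided. Among the alternatives, Icosl passed 2-fold with the E1A control spots (a bound of 1.01). With dim probes at their own signal, Cd86 passed it upward (2.11) and Cd40 downward (-1.11).

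Cd274, which encodes PD-L1, the ligand of the inhibitory T cell receptor PD-1, differed most among the 10 genes. Its single probe had a normalized signal of 365 ± 45.2 in Villin-Cre colon and 2341 ± 234 in EP4 cKO colon, a log2 ratio of 2.68 (scanner error 0.23), or 6.41-fold higher. The probe was well above background on both arrays, and the difference was many times the scanner error. It placed Cd274 at rank 119 from the top of 14679 genes. Over the 5 other scalings the log2 ratio lay between 2.33 and 3.74 and exceeded 2-fold in all 5. The alternatives on floors and on the choice of probes could not change it, since its single probe was well above background on both arrays.

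Cd47, which encodes a ligand of SIRPα that restrains phagocytosis by macrophages and is made by almost every cell, came next. Its single probe had a normalized signal of 7056 ± 706 in Villin-Cre colon and 15508 ± 1551 in EP4 cKO colon, a log2 ratio of 1.14 (scanner error 0.20), or 2.20-fold higher, at rank 574. The lowest value over the 5 other scalings was 1.10, so Cd47 also kept its place past 2-fold, but close to the threshold. The remaining alternatives could not change this value either.

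Cd44 encodes the receptor of hyaluronan, with which leukocytes and epithelial cells bind the matrix and which marks activated T cells. Its brightest probe was at 319 ± 41.7 in Villin-Cre colon and 623 ± 63.5 in EP4 cKO colon, a log2 ratio of 0.96 (scanner error 0.24), or 1.95-fold higher. A second probe was at 138 ± 34.7 and not well above background in Villin-Cre colon and at 268 ± 30.6 in EP4 cKO colon, where it was at least 1.95-fold higher. These probes gave the same direction, whereas the third, at 27.5 and 12.7, was not well above background in either colon. Cd44 passed 2-fold in 4 of the 5 other scalings. These were the 75th percentile (log2 ratio 1.12), the trimmed mean over all spots (1.10), loess (1.21) and the E1A control spots (2.02). With normexp and quantile normalization it was at 0.86, and Cd44 thus lies at the threshold rather than clearly on a side of it.

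The genes that act with CD44 were listed with it: enzymes that make or cut hyaluronan, other hyaluronan receptors, the proteins that tie CD44 to the cytoskeleton and the factors that splice it. Of 16 genes, 11 had a value, 2 were higher, 1 was lower and the median log2 ratio was -0.05. The higher genes were Cd74, the invariant chain of MHC class II and a partner of CD44 at the cell surface (6.99), and Msn, which encodes moesin, a link to actin, at 346 in Villin-Cre colon and 705 in EP4 cKO colon (1.03, and 0.86 with normexp and quantile normalization). The lower gene, Hyal1, a hyaluronidase, was at least 2.47-fold lower, and past 2-fold in 3 of the 5 other scalings, with -0.24 for the E1A control spots and -0.38 for another. The splicing factors Esrp1 (-0.05) and Esrp2 (-0.50) were within 2-fold, and the hyaluronan synthases Has1, Has2 and Has3 and the ligand Spp1 were not well above background.

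**Figure D2:**
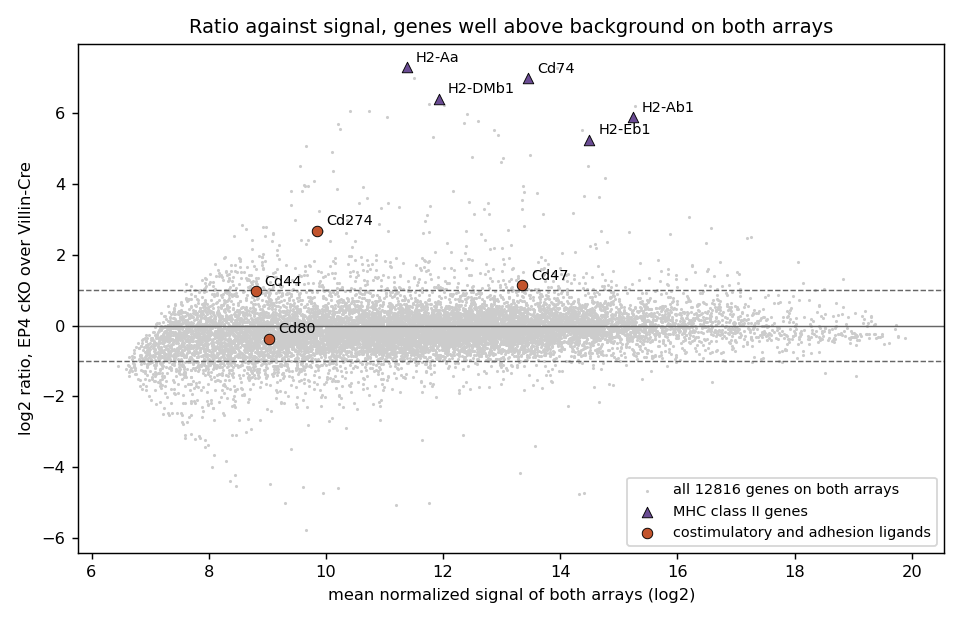
Log2 ratio of EP4 cKO over Villin-Cre (y axis) against the mean normalized signal of the arrays (x axis, log2) for the 12816 genes whose chosen probe was well above background on both arrays (dots), with the 4 ligand genes among them as circles and 5 MHC class II genes as triangles; dashed lines mark 2-fold. Cd274 and Cd47 lie above the upper line, Cd44 at it and Cd80 between the lines, all below the 5 MHC class II genes, which lie between 5.26 and 7.30.

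The adhesion molecules of the endothelium, Icam1, Vcam1 and Madcam1, gave no measurement above background. Icam1, whose product binds the integrin LFA-1 and is also carried by leukocytes and epithelium, was at 31.5 in Villin-Cre colon and 16.9 in EP4 cKO colon. Vcam1, whose product binds the integrin α4β1, was at 29.6 and 27.8 with its 2 probes in Villin-Cre colon and at 13.3 and 12.9 in EP4 cKO colon. Madcam1, whose product binds the integrin α4β7, was at 106 ± 27.3 in Villin-Cre colon and 11.5 in EP4 cKO colon. The Madcam1 signal of the Villin-Cre array was the highest among the 11 dim probes, but it too was not well above background, and no fold can be given for any of the 3 genes. The paper lists Icam1, Cd86 and Cd44 among genes altered past a log2 value of 1 in the EP4-deficient colon. Here Icam1 gave no value, Cd86 no fold (2.11 from its own signals) and Cd44 a log2 ratio of 0.96. That listing was thus not recovered for them with the trimmed mean and the bounds used here.

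The dim probes had lower signals on the EP4 cKO array as a class. Over the 11 probes of the 10 genes that were not well above background in either colon, signals ran from 26.5 to 106 on the Villin-Cre array and from 11.5 to 16.9 on the EP4 cKO array, with a median log2 ratio of their own signals of -1.14. The same median over all 26467 probes of this kind was -1.13. The dim probes of Cd40, Icam1, Vcam1, Cd80, Cd86, Cd44 and Icosl ran from -1.16 to -0.90 on this scale, near that median, whereas Madcam1 was at -3.20. The median log2 ratio of probes on both arrays also moved with signal, from -0.55 among the dimmest 10% to -0.10 among the brightest 10%.

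The MHC class II genes differed on another scale. Of 11 genes, which include the chains that present peptide, those that load it, the invariant chain and the class II transactivator, 8 had a value, 7 were more than 2-fold higher on the EP4 cKO array and 0 were lower, with a median log2 ratio of 5.94. Among those well above background on both arrays, H2-Aa and H2-Ab1, the chains of 1 class II molecule, differed by 158-fold and 59.4-fold, H2-Eb1, a chain of another, by 38.2-fold, Cd74, the invariant chain, by 127-fold, and H2-DMb1, a chain of the peptide loader, by 85.3-fold. The smallest of these 5 log2 ratios was 5.26, beside 2.68 for Cd274.

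Ciita, the transactivator that switches class II genes on, was at 85.2 and not well above background in Villin-Cre colon and at 7937 in EP4 cKO colon, at least 63.3-fold higher. Its second probe gave a bound of 3.47-fold. H2-DMa, which pairs with H2-DMb1, was likewise not well above background on the Villin-Cre array, at 139, and at least 55.6-fold higher, with 7710 on the EP4 cKO array. Over the other scalings the bounds went down to a log2 ratio of 4.82 for Ciita and 4.56 for H2-DMa. H2-Ob, at 114 and not well above background in Villin-Cre colon and at 95.2 in EP4 cKO colon, gave no fold, and H2-Eb2, H2-DMb2 and H2-Oa were not well above background in either colon. The same count of 7 genes past 2-fold was found with each of the 5 other scalings, with medians of 5.63 or more.

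The regulators that act upstream of MHC class II and of PD-L1 were for the most part within 2-fold. All 19 listed genes had a value, with 2 higher, 1 lower and a median log2 ratio of -0.03. Scaled to the E1A control spots, 9 were higher and 0 lower, with a median of 0.98. Each of the other scalings gave 2 higher. Irf1, an interferon-induced factor that acts on both Ciita and Cd274, was at 29301 in Villin-Cre colon and 74994 in EP4 cKO colon (log2 ratio 1.36, 2.56-fold higher).

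The gene that was lower was Cmtm4, which encodes a membrane protein that protects PD-L1 from degradation, at 20263 in Villin-Cre colon and 9218 in EP4 cKO colon. Its log2 ratio of -1.14 was -0.08 when scaled to the E1A control spots and was past 2-fold in 3 of the 5 other scalings. Irf1 was more than 2-fold higher in all 5.

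**Figure D3:**
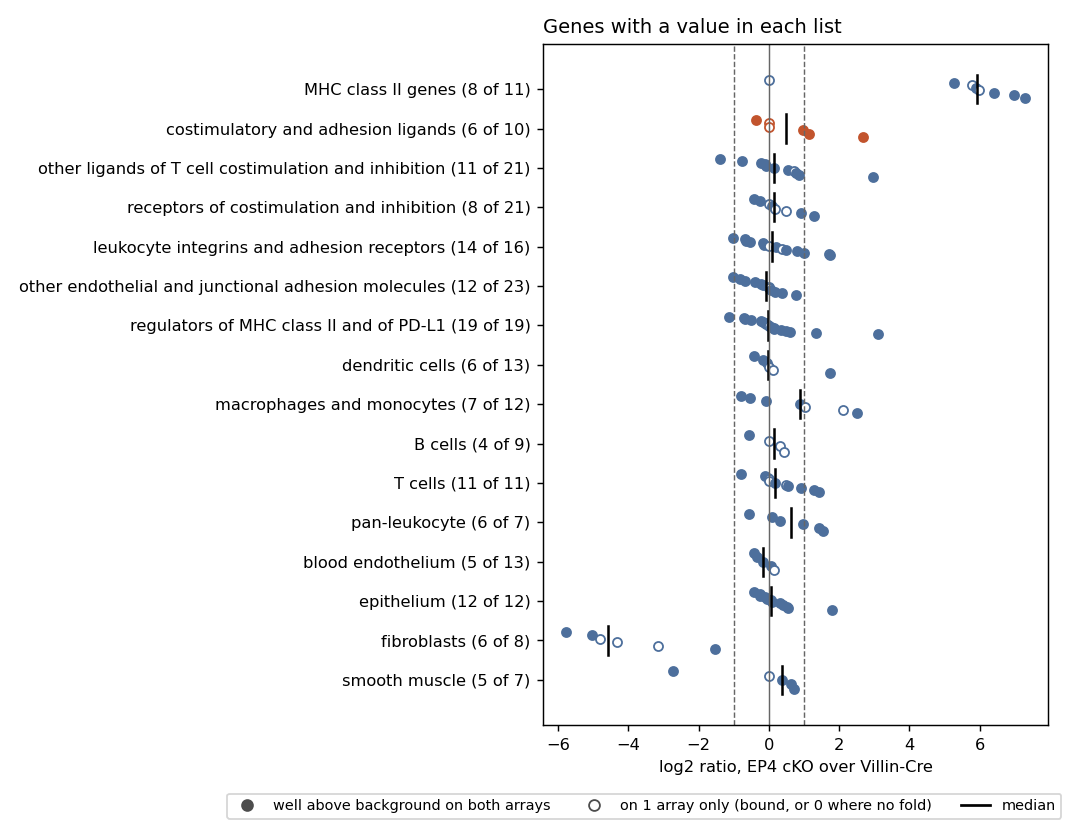
Log2 ratio of EP4 cKO over Villin-Cre (x axis) of the genes with a value in 16 lists (y axis, with the number of genes with a value of all genes listed), filled where well above background on both arrays and open for bounds, with black bars for medians and dashed lines at 2-fold. The MHC class II genes lie near their median of 5.94 except for H2-Ob at 0, the ligands span -0.37 to 2.68, and the fibroblast markers run from -5.77 to -1.52.

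Other ligands of T cell costimulation and inhibition showed few differences past 2-fold. Of 21 genes, 20 had a probe and 11 a value, with 1 higher, 1 lower and a median log2 ratio of 0.15. The median was 0.03 over the 10 genes on both arrays. When scaled to the E1A control spots, 6 were higher and 0 lower (median 1.21), against 1 or 2 higher with the other scalings. Lgals9, which encodes galectin-9, a ligand of the inhibitory receptor TIM-3, was at 1191 in Villin-Cre colon and 9236 in EP4 cKO colon (2.95, 7.75-fold higher). Cd200, a ligand that restrains myeloid cells, was at 714 and 270 (-1.40, 2.64-fold lower), and it was past 2-fold in 3 of the 5 other scalings, with -0.34 for the E1A control spots and -0.78 for another. Pdcd1lg2, which encodes PD-L2, the other ligand of PD-1, was not well above background in either colon.

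The list of receptors, mainly of the T cell and of Cd47, to which Thbs1 was added as another partner of CD47, was mostly dim. Of 21 genes, 13 were not well above background in either colon, among them Ctla4, Icos, Pdcd1 and Cd40lg, the partners of Cd80 and Cd86, Icosl, Cd274 and Cd40, and Sirpa, the partner of Cd47. Cd28 was at 104 and not well above background in Villin-Cre colon and at 85.2 in EP4 cKO colon, which gives no fold. Of the 8 genes with a value, 1 was higher and 0 were lower, with a median log2 ratio of 0.15. The gene that was higher, Cd6, a T cell receptor of ALCAM, was at 194 in Villin-Cre colon and 476 in EP4 cKO colon (log2 ratio 1.29), and it was within 2-fold with normexp and quantile normalization (0.91). Thbs1, which encodes thrombospondin-1, another ligand of CD47, was at 424 and 358 (-0.24).

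Leukocyte integrins and adhesion receptors, the partners of Icam1, Vcam1 and Madcam1, differed in both directions with the trimmed mean. Of 16 genes, 14 had a value, 2 were higher, 1 was lower and the median log2 ratio was 0.10 (-0.13 over the 11 on both arrays). With the 5 other scalings 0 were lower and 2 to 4 were higher, or 7 with the E1A control spots (median 1.09). Itgax, the αX chain carried by dendritic cells and some macrophages, was at 152 in Villin-Cre colon and 505 in EP4 cKO colon (1.73). Itgae, the αE chain of intraepithelial lymphocytes, was well above background on the EP4 cKO array only and was at least 3.30-fold higher.

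The chains of the integrins α4β7, α4β1 and LFA-1 with a value were within 2-fold with the trimmed mean. Itgb7, the β7 chain, was at 436 in Villin-Cre colon and 766 in EP4 cKO colon (log2 ratio 0.81), and Itga4, the α4 chain, at 158 and 181 (0.20, scanner error 0.37). Itgb7 passed 2-fold in 2 of the 5 other scalings, up to 1.04 without the E1A control spots and 1.87 with them, and with those spots Itga4 (1.26) and Itgb2 (1.43) passed it too. Itgal, the α chain of LFA-1, was at 290 and 187 (-0.64), while Itgb2, its β chain, was at 109 and not well above background in Villin-Cre colon and at 162 in EP4 cKO colon, a bound of 0.37. When scaled to the E1A control spots Itgal was at 0.42, so that its sign turned. Cd99l2, a membrane protein of leukocytes and endothelium, was at 10602 and 5262 (-1.01), and it was past 2-fold in 0 of the 5 other scalings.

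Other molecules of the endothelium and of cell junctions were mainly within 2-fold or not well above background. Of 23 genes, 12 had a value, 0 were higher and 1 was lower, again Cd99l2, with a median log2 ratio of -0.09. Sele and Selp, the endothelial selectins, were among the 11 that were not well above background in either colon. Of the 13 markers of blood endothelium, 8, among them Cdh5, Kdr and Tek, were not well above background in either colon, and the 5 others ran from -0.43 (Egfl7) to a bound of 0.16 (Robo4). The summed normalized signal of the 4 markers on both arrays was 1531 in Villin-Cre colon and 1435 in EP4 cKO colon. The endothelium, the main source of Vcam1 and Madcam1, was thus measured through 5 of its 13 markers. Of 6 lymphatic endothelial markers 2 had a value, both within 2-fold, and of 7 markers of follicular stroma, the cells around B cell follicles that also carry Vcam1 and Madcam1, Mfge8 alone had one (-0.16).

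The markers of antigen-presenting cells, which carry Cd80, Cd86, Icosl and Cd40, were in part not well above background as well. In bulk tissue a difference in the number of cells of a type cannot be told apart from a difference in RNA per cell. Of 13 dendritic cell markers 6 had a value, with 1 higher, 0 lower and a median log2 ratio of -0.03, from Lamp3 at -0.43 to Itgax at 1.73, and Flt3, Batf3, Xcr1 and Clec9a were not well above background in either colon. The summed normalized signal of the 4 on both arrays was 244832 in Villin-Cre colon and 217950 in EP4 cKO colon, nearly all of it from 1 probe of Siglech (238790 and 213032), whose other probe, at 28.4 and 13.0, was not well above background. Of 12 markers of macrophages and monocytes 7 had a value, with 3 higher, 0 lower and a median of 0.88 (-0.09 over the 5 on both arrays, of which 1 was higher), from Csf1r at -0.79 to Ly6c2 at 2.50, and Adgre1, Cd163, Fcgr1 and Lyz2 were not well above background. The other higher genes, Mrc1 (2.11) and Cx3cr1 (1.03, and 0.59 as the lowest over the other scalings), were bounds. The sum over the 5 on both arrays was 80868 and 392096, nearly all of it Ly6c2, which was at 65616 and 372306.

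Of 9 B cell markers 4 had a value, with 0 past 2-fold and a median log2 ratio of 0.16, from Cd22 at -0.55 to a bound of 0.44 for Pax5, and Ms4a1 and Cd79a were not well above background. Cd22, at 389 and 265, was the single B cell marker on both arrays. All 11 T cell markers had a value, with 2 higher, 0 lower and a median of 0.18, from Cd3d at -0.79 to Cd8b1 at 1.44. The 8 on both arrays had a median of 0.36 and sums of 13733 and 14888. Scaling to the E1A control spots gave 7 higher (median 1.24), and the other scalings 1 to 3. The direction of Cd3d was not settled, since its second probe, also well above background on both arrays, was at 0.90 (650 and 1215), and its value ran from -0.65 to 0.90 over the other scalings. Of 7 pan-leukocyte markers 6 had a value, with 2 higher, 0 lower and a median of 0.64, from Laptm5 at -0.58 to Coro1a at 1.53, and sums of 9891 and 15252. The part of such cells in the values of Cd274, Cd47 and Cd44 was not tested.

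Epithelial and stromal markers differed from each other. All 12 epithelial markers had a value, with 1 higher, 0 lower and a median log2 ratio of 0.08, from Car1 at -0.42 to Krt20, a keratin of surface cells, at 1.80. Of 8 fibroblast markers 6 had a value and all 6 were more than 2-fold lower, with a median of -4.56, from Pdgfrb at -1.52 to Dcn, which encodes decorin, at -5.77 (6006 in Villin-Cre colon and 110 in EP4 cKO colon, 54.5-fold lower). Pdgfrb was within 2-fold in 2 of the 5 other scalings. The sum over the 3 fibroblast markers on both arrays was 10172 and 413. Of 7 smooth muscle markers 5 had a value, with 1 lower (Cnn1, -2.73), 0 higher and a median of 0.38, up to Actg2 at 0.72. The sums over 4 markers were 30018 and 45353, most of it from 1 probe of Acta2 (18006 and 27719). Another Acta2 probe, also well above background on both arrays, went the other way, at 451 and 302 (-0.58). Fibroblasts also make Cd44, Cd274 and Vcam1, and the part of the lower fibroblast markers in the values of these genes was not tested.

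**Figure D4:**
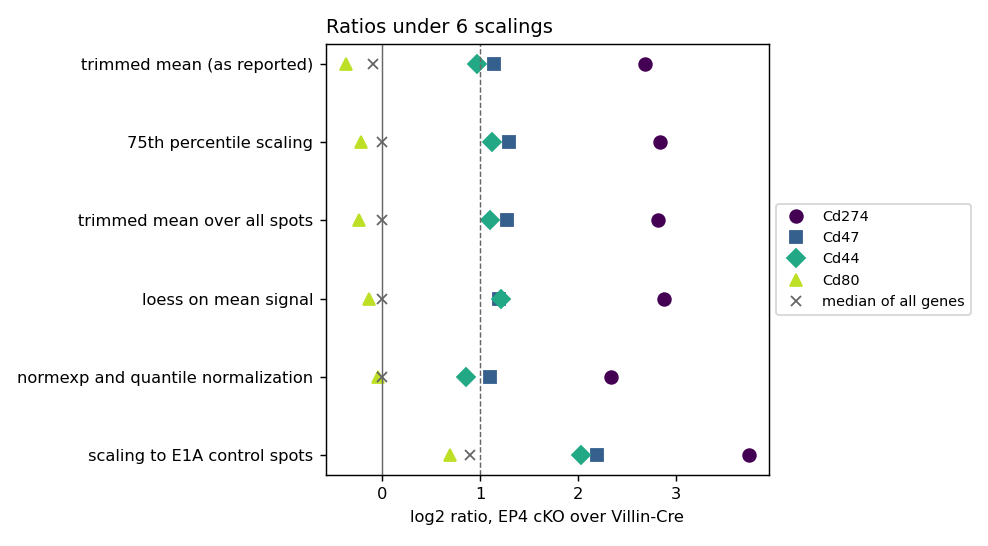
Log2 ratio of EP4 cKO over Villin-Cre (x axis) of the 4 ligand genes measured on both arrays and the median of all genes (crosses) under 6 scalings (y axis); the dashed line marks 2-fold. Cd274 lies at 2.33 or above and Cd47 at 1.10 or above in every row, Cd44 falls on either side of the line, and Cd80 lies above 0 only when scaled to the E1A control spots, where the median of all genes lies at 0.89.

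Set against the median of all genes, the log2 ratios were 2.78 higher for Cd274, 1.24 for Cd47 and 1.06 for Cd44, and Cd80 was 0.27 lower. The order Cd274, Cd47, Cd44, Cd80 was found with the trimmed mean; Cd47 and Cd44 differed from each other by less than their scanner errors, and with loess Cd44 (1.21) came before Cd47 (1.19).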

How the data were processed

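Whole-colon RNA of each genotype, labelled with Cy3, was measured on 1 Agilent SurePrint G3 mouse array, and the groups were taken from the labels. The authors deposited the output of Agilent Feature Extraction (12.0.3.1 by the file headers, 11.5.1.1 by the submitters' processing notes). The deposited values used were processed spot intensities: local background was removed by that software, which put a small positive number where little signal remained. They do not include the authors' global scaling (trimmed mean 2500), so it was applied here to gene probes, averaged over their spots, without outlier spots (147 for Villin-Cre and 126 for EP4 cKO). The trimmed means before scaling were 724 and 931, so that the scaling factors were 3.45 for Villin-Cre and 2.68 for EP4 cKO. Probes were named by their RefSeq accession through a gene table of GRCm38.p6; 32989 of 56593 (58.3%) matched. The array's own grid refers to an older assembly, and no gene or probe coordinate is given. Precision is limited by the number of arrays. The 163 probes with 10 spots well above background on both arrays (median SD of the log2 ratio 0.034) measure only the spread within an array.

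No test was made. The members and the gene lists were chosen with earlier results of these data known. The genes named are the 10 members, all MHC class II genes, Ptger4, the direct partners of members, in each other list the genes past 2-fold on both arrays, and in marker lists those at the lowest and highest ratio; any other gene was named after its values were seen. Some genes that this rule would name are not reported here. The 12 alternatives were scaling to the 75th percentile, to the 350 E1A control spots or to a trimmed mean over all spots, loess (span 0.3), normexp (offset 50, on the median spot signal) with quantile normalization, probes well above background on both arrays, dim probes at their own signal, 1 floor for both arrays, the mean of all probes or the probe with the largest ratio, and thresholds of 3-fold and 1.5-fold. The steps were checked on simulated data. Software versions were R 4.3.3 (limma 3.58.1) and Python 3.11.15 (pandas 2.3.3, numpy 2.4.6, matplotlib 3.10.9, statsmodels 0.14.6).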

Additional observations from a re-analysis of the deposited data

How the results depend on the processing

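Past 2-fold, 2 of the 10 genes were higher. This count was 4 when scaled to the E1A control spots, 1 at a 3-fold threshold, and 2 or 3 in the other 10 alternatives. The count of lower genes was 0 throughout, except that 3 (Cd40, Vcam1 and Madcam1) were lower with the own signal of dim probes in place of a bound. The median log2 ratio of 0.48 was 1.52 with the E1A control spots, 1.05 over probes well above background on both arrays, 0.022 with the own signal of dim probes, and between 0.48 and 0.61 in the other 7 alternatives that give a median. E1A spots raised the median of all genes by 0.99 and had a median unscaled log2 ratio of -0.70 with an SD of 0.49 over 350 spots. With the own signal of dim probes, 1169 genes were higher and 7213 lower, against 713 and 1155. The E1A control spots gave 5991 and 325, normexp with quantile normalization 605 and 391, a 3-fold threshold 324 and 534, and a 1.5-fold threshold 1444 and 2727. Signal over background limits the list, since 4 genes had no probe above background. No paired analysis was possible because the groups share only 1 replicate number, with 1 array each, and no array could be left out.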
